A study of Mus musculus with 12 samples.

Results

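The isolated gene ends examined here are the 3′ ends of autosomal protein-coding genes 30 to 100 kb long (mm10, GENCODE M21 annotation) that had no other protein-coding gene within 50 kb of the end. Of the 20807 autosomal protein-coding genes, 4967 had this length and 930 of these had an isolated end, 482 on the plus strand and 448 on the minus strand. The rule reads the annotation only, and it was set with earlier results of these data known. The median gene length was 56.7 kb, the median distance to the nearest other protein-coding gene was 83.5 kb, and each of the 19 autosomes held 28 to 70 of the ends. Other kinds of gene, such as long non-coding RNAs, were not part of the rule, and 270 ends had no gene of any type within 50 kb.

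Fork direction was measured by OK-seq, in which short Okazaki fragments labelled with EdU, a thymidine analog, are purified and sequenced with their strand, in mouse embryonic stem cells (ESCs) kept naive in LIF and 2i medium and in epiblast-like cells (EpiLCs, called formative in the sample labels) derived from them. Each state was represented by 3 genotypes with 2 replicates, 12 samples in all. The control was KMT2C-KO and so was not wild type, and the KMT2C/D double knockout (dKO) was made from the same KMT2C-KO, KMT2D-conditional line of mixed C57BL/6 and 129 background by removing KMT2D with Cre-ER and 4-hydroxytamoxifen, so that both lacked KMT2C. The cells labelled double catalytic dead for KMT2C/D (dCD) came, by the methods, from another line (R1) of 129 background, so that genotype and line cannot be told apart for them. The replicates are described as independent cultures. KMT2C and KMT2D are the main methyltransferases for H3K4me1, a histone mark of enhancers. The study asked whether they affect the timing of replication and the firing of replication origins.

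Replication forks leave an origin in both directions, and the strand on which Okazaki fragments are found at a site tells which way the fork moved there. Origins are known to be frequent near the promoters of active genes, so forks tend to travel through a gene in the same direction as RNA polymerase, and forks that meet head-on end replication between origins. The end of a gene, where transcription by RNA polymerase II terminates after the poly(A) signal, lies away from the promoter, and an isolated end can be read without a promoter of another protein-coding gene nearby. The Crick percentage, Crick reads out of Watson and Crick reads, was read in the direction of transcription, so a value over 50% means that most forks moved along with transcription and a rise along the profile means net initiation, whereas a fall means net termination.

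A few annotated ends are printed to show what position 0 of the profiles is. The hexamer AATAAA, searched on the coding strand only, was present in the last 40 bases of 545 of the 930 gene models (58.6%) and of 11843 of all 20807 autosomal protein-coding genes (56.9%). The variant ATTAAA was present without it in a further 131 (14.1%) and 2642 (12.7%) respectively, and 254 isolated ends had neither hexamer. The last 30 bases before the end are given below, read 5′ to 3′ on the coding strand from the mm10 reference, with AATAAA in capitals, for gene ends among the 6 lowest (Slc22a28, Cyp2c38, Vmn2r118) and the 6 highest (Sult2a5, Meox2, Moxd1) in the change of fork direction in EpiLCs and for regulators of pluripotency and replication described later (Tfcp2l1, Etv5, Orc5).
Slc22a28 (chr19:8062209-8062238, minus strand): cttgataAATAAAgattaaaaagaaaacac
Cyp2c38 (chr19:39389556-39389585, minus strand): aaatttaaAATAAAaatagctacagtttgt
Sult2a5 (chr7:13670778-13670807, plus strand): catagAATAAAacctgttgtggaattgtga
Meox2 (chr12:37179505-37179534, plus strand): aaaaagataAATAAAtgatccttgaaataa
Tfcp2l1 (chr1:118685139-118685168, plus strand): atgcaAATAAAaccatttgtactaaaccca
Etv5 (chr16:22381309-22381338, minus strand): tacAATAAAgaagattgctttccttacgca
Orc5 (chr5:22486485-22486514, minus strand): gcgccacAATAAAattcttcctcttacatt
Moxd1 (chr10:24302761-24302790, plus strand): aaatattctgctttagagtcttcacttctt
Vmn2r118 (chr17:55590370-55590399, minus strand): tattacctgtgtaaaatatattaatttttt
The ends of Vmn2r118 and Moxd1 did not hold the hexamer and are shown beside ends that did. The coordinates are 1-based and the printed bases are the exonic end of the gene model.

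Depth ranged from 3655095 to 4409068 reads in the naive tracks and from 11407678 to 13601460 reads in the EpiLC tracks. Of the 930 ends, 889 had at least 10 reads in the 25 kb on each side in all 6 tracks, and 41 did not and were left out of means over ends. The median number of reads per side was 48, 42 and 40 in naive control, dKO and dCD cells and 127, 146 and 149 in EpiLCs. The 2 replicates of a condition were summed in the deposited tracks, so no spread between replicates could be measured, no p-value is given, and the 95% intervals cover counting error only. The spread over the 19 autosomes is given beside them.

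Forks moved along with transcription more often than against it on both sides of the isolated ends, and as counted their share was lower past the end than before it in all 6 tracks. With the base content of the sequence adjusted for, as described further on, the change across the end was between 0.042 and 0.87 percentage points and no longer below 0. In naive control cells the mean Crick percentage was 56.3% in the last 25 kb of the gene and 52.6% in the 25 kb past the end. In naive dKO cells it was 56.9% and 53.3%, and in naive dCD cells 57.6% and 54.1%. In EpiLCs it was 54.5% and 51.8% in the control, 54.6% and 51.4% in dKO and 55.2% and 52.2% in dCD cells.

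The step, the percentage past the end minus that before it at each end, was below 0 on average in every track. It was -3.73 percentage points in naive control cells (95% interval -4.41 to -3.06), -3.64 in naive dKO (-4.35 to -2.93) and -3.47 in naive dCD cells (-4.19 to -2.74). It was -2.72 in EpiLC control cells (-3.14 to -2.30), -3.23 in EpiLC dKO (-3.63 to -2.84) and -3.03 in EpiLC dCD cells (-3.41 to -2.64). The mean was below 0 on 19 of 19 autosomes in naive control and EpiLC dCD cells and on 18 of 19 in the other 4 tracks, and the autosome means ranged from -8.34 to -0.99 in naive control and from -5.68 to 0.25 in EpiLC control cells. Single ends varied far more than the mean, since the middle 50% of steps ran from -12.3 to 4.55 in naive control and from -8.51 to 3.26 in EpiLC control cells. Between 524 and 568 of the 889 ends had a lower percentage after than before in a given track, 169 did in all 6 tracks and 44 had a higher one in all 6.

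At the level of single ends the depth was limiting. An end was counted where the 95% interval of its step, from the reads of both sides, left out 0. In naive control cells 104 of 889 ends (11.7%) had such a step below 0, where 6.87% of 92429 positions spaced every 25 kb along the autosomes did, and 36 (4.05%) had one above 0, where 7.69% of positions did. In EpiLC control cells the ends below 0 were 112 (12.6%) against a background of 7.4%, and the ends above 0 were 41 (4.61%) against 8.08%. As counted, falls were thus more frequent and rises less frequent at the isolated ends than at the evenly spaced positions, whose mean step was 0.006 in naive and 0.012 percentage points in EpiLC control cells. The count of single ends was not repeated with the base content adjusted for.

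The profile in 5 kb bins showed a trough rather than a single step. Reads were summed over the 930 ends, with Wilson 95% intervals. The lowest bin was the first 5 kb past the end in all 6 tracks, at 51.5% (50.5 to 52.6), 52.1% (50.9 to 53.2) and 52.7% (51.6 to 53.9) in naive control, dKO and dCD cells and at 50.6% (49.98 to 51.3), 50.1% (49.5 to 50.7) and 50.6% (50.03 to 51.2) in EpiLCs. Before the end the percentage was highest 25 to 40 kb away, beyond the 5′ end in the shortest genes, at 60.2%, 60.5% and 61.8% in naive cells and 57.1%, 57.9% and 58.3% in EpiLCs. It then recovered past the end, with the highest downstream bin 20 to 40 kb away at 54.6%, 55.7% and 56.96% in naive cells and 54.3%, 54.0% and 54.7% in EpiLCs, below the level before the end in each track. The change at the end itself was abrupt at this resolution, since the last 5 kb of the gene still stood at 54.6% in naive control and 52.7% in EpiLC control cells.

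**Figure D1:**
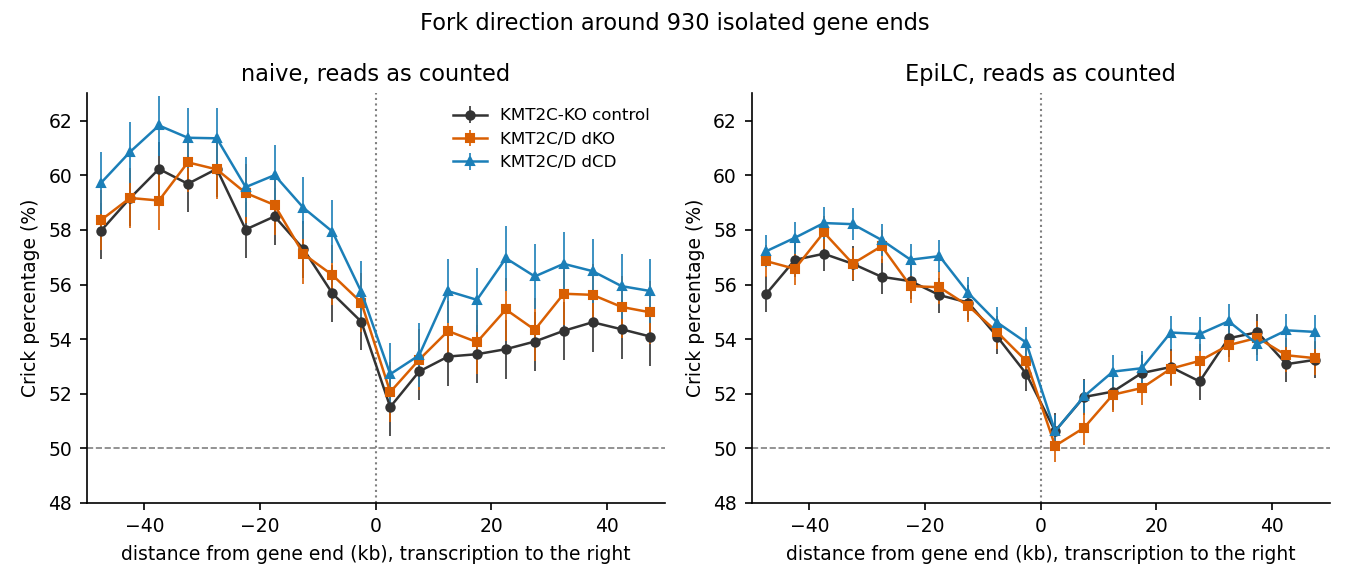
Crick percentage in 5 kb bins (y axis, percent) against distance from the gene end in kb (x axis, transcription to the right), with reads summed over 930 ends, bars as Wilson 95% intervals from counting error and 1 line per genotype in naive (left) and EpiLC tracks (right). All 6 lines are lowest in the first 5 kb past the end, at 50.1% to 52.7%.

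In 1 kb bins, with the 3 tracks of a state summed, the percentage dropped from 56.3% to 51.9% in naive cells and from 54.0% to 50.2% in EpiLCs between the last kilobase of the gene and the second kilobase past it. The kilobase before the last was lower than the last, at 54.5% and 52.8%. With T minus A content adjusted for, as described below, the same drop was from 51.4% to 50.6% in naive cells and from 50.3% to 49.4% in EpiLCs. As counted it stayed between 49.8% and 52.0% in EpiLCs and between 51.3% and 53.6% in naive cells over the first 5 kb past the end.

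Base composition changed at the same place. Across the autosomes, 1 kb bins richer in T than in A had a higher Crick share than the bins around them in every track. The slope of this local relation was 1.69, 1.63 and 1.74 in the naive and 1.15, 1.31 and 1.33 in the EpiLC tracks, as a change in Crick share for a change in the T minus A fraction. On the coding strand the T minus A content was 2.95% of bases in the last 25 kb of the gene and 0.43% in the 25 kb past it, and it was lower after than before at 681 of the 889 ends. T was 30.3% and A 27.3% of the bases before the end, and they were 28.7% and 28.3% after it. In 5 kb bins the excess reached 3.62% at 25 to 30 kb before the end and fell from 2.29% to 0.80% between the last and the first 5 kb on either side of it. G plus C content was 42.4% before and 43.1% after the end.

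When the share predicted from T minus A content was subtracted bin by bin, using the slope of each track (written here as T minus A taken off), the step was no longer below 0. It became 0.50 (-0.19 to 1.19) in naive control, 0.44 (-0.28 to 1.17) in naive dKO and 0.87 (0.12 to 1.61) in naive dCD cells. In EpiLCs it became 0.15 (-0.27 to 0.58), 0.042 (-0.35 to 0.44) and 0.21 (-0.18 to 0.60) for control, dKO and dCD cells, and the number of ends lower after than before fell to between 413 and 445 of 889. The level on each side dropped towards 50% at the same time, from 56.3% to 51.2% before the end and from 52.6% to 51.7% after it in naive control cells. These intervals do not include the error of the slope.

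The trough itself remained. After this adjustment the first 5 kb past the end was still the lowest bin in all 6 tracks, at 50.1%, 50.6% and 51.1% in naive and 49.7%, 49.2% and 49.4% in EpiLC control, dKO and dCD cells. The bin before it stood at 50.4% to 51.7% in naive cells and at 49.9% to 50.6% in EpiLCs, so that the abrupt drop at the end was mostly gone while the decline along the gene and the recovery past it were not. The highest bins 30 to 45 kb before the end were at 54.7% to 56.4% in naive and 53.8% to 54.3% in EpiLC tracks, close to the highest bins past the end at 53.9% to 55.8% and 53.3% to 54.0%.

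**Figure D2:**
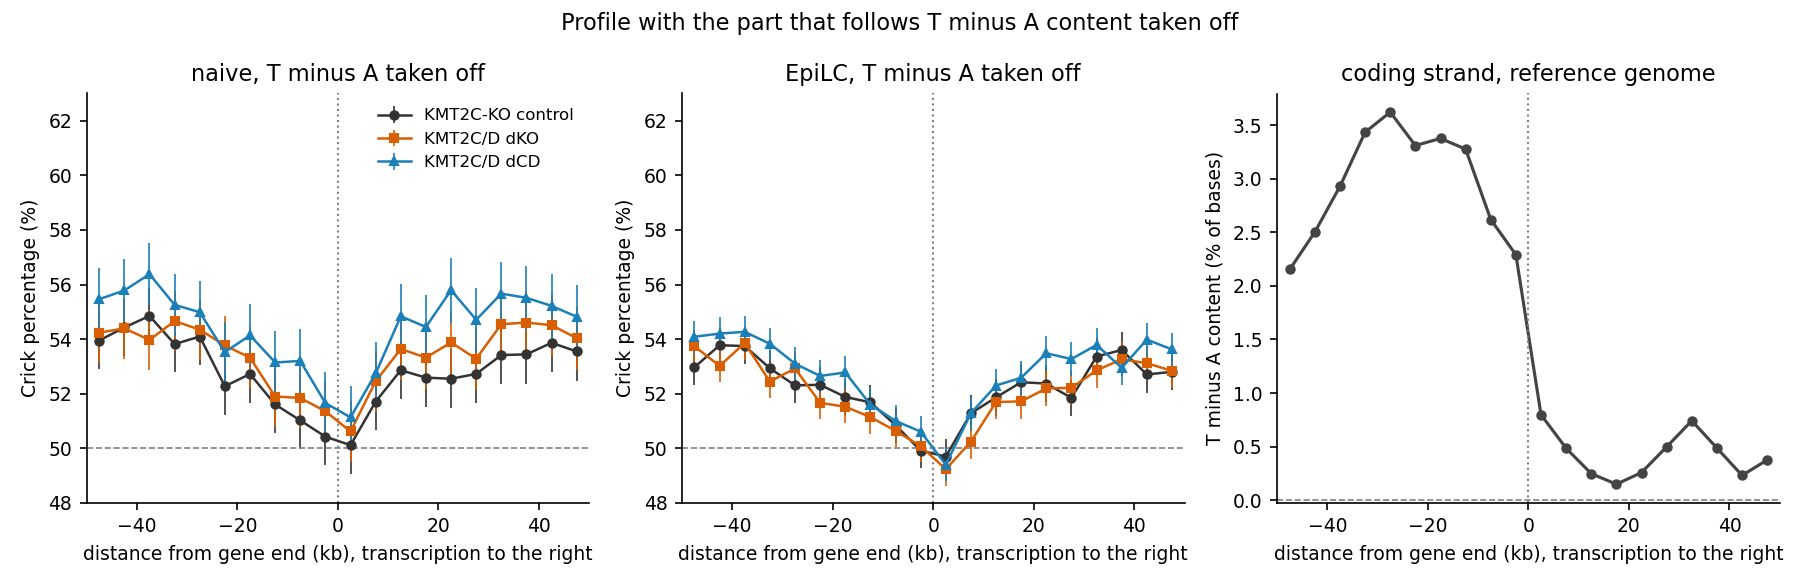
Left and middle, the same 5 kb profile of the Crick percentage (percent, Wilson 95% intervals) with T minus A taken off, in naive and EpiLC tracks. Right, the T minus A content of the coding strand in percent of bases around the same ends. The fork profile is a trough with its lowest bin at 49.2% to 51.1% just past the end, and the base content falls from 2.29% to 0.80% there.

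The depth of the trough was put into 1 value, the dip, as the Crick percentage within 10 kb of the end minus the mean of the windows 25 to 50 kb away on both sides. This measure was chosen after the profile was seen and is given as a description. Over the 883 ends with enough reads it was -3.35 (-3.97 to -2.72), -2.83 (-3.50 to -2.17) and -3.52 percentage points (-4.19 to -2.84) in naive control, dKO and dCD cells. In EpiLCs it was -2.50 (-2.89 to -2.10), -3.03 (-3.40 to -2.67) and -3.18 (-3.53 to -2.83). Adjusted for T minus A it was -3.08, -2.43 and -3.09 in naive and -2.40, -2.80 and -3.06 in EpiLC tracks, and it was below 0 on 17 to 19 of the 19 autosomes in every track.

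**Figure D3:**
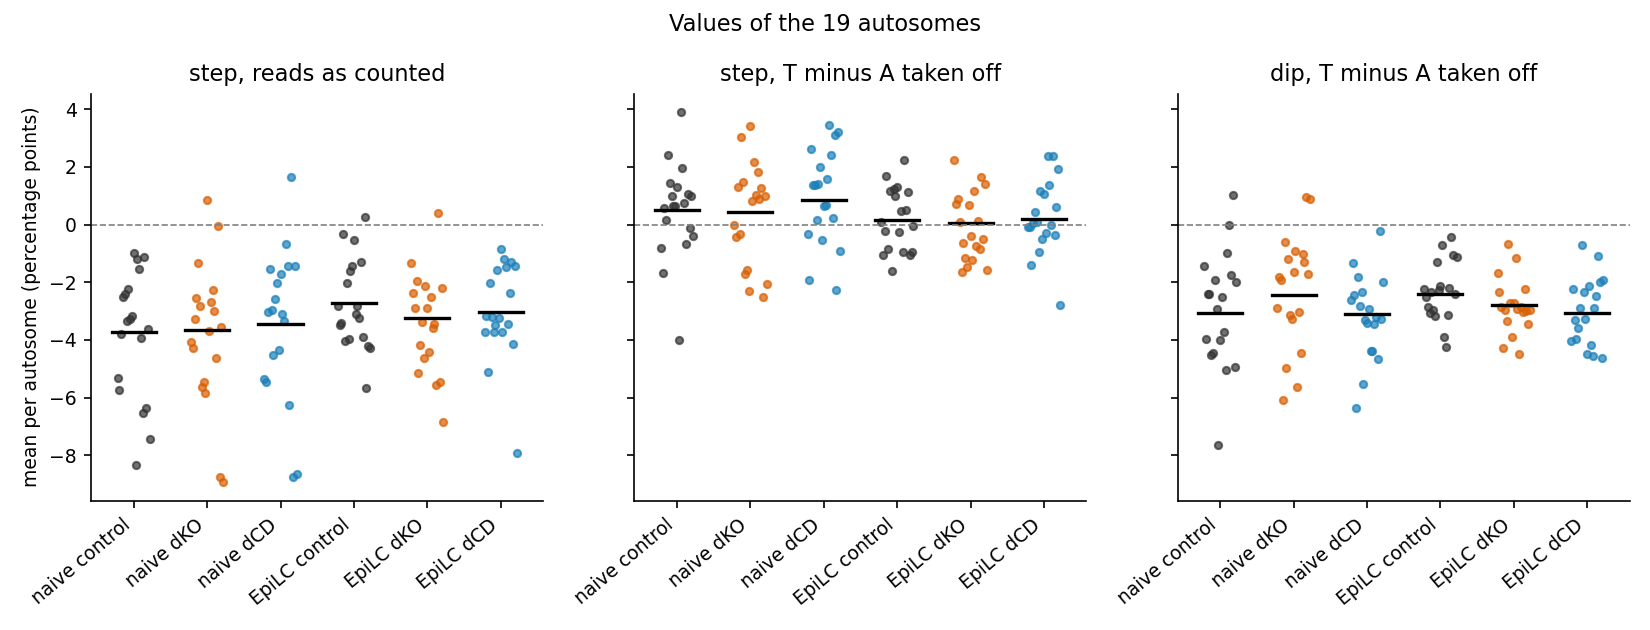
Mean per autosome (y axis, percentage points) of the step as counted, the step with T minus A taken off and the dip with T minus A taken off, 19 points per track, with black lines at the mean over all ends. The step as counted and the dip lie below 0 on 17 or more autosomes in every track, and the step with T minus A taken off lies on both sides of 0.

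The step was next compared with that at other points of the same genes. At the 5′ ends it was 9.07, 10.2 and 10.6 percentage points in naive control, dKO and dCD cells and 6.19, 6.62 and 7.08 in EpiLCs, and with T minus A taken off it stayed above 0, at 2.88, 4.08 and 4.09 in naive and 2.14, 2.05 and 2.37 in EpiLC tracks. At points 25 kb before the isolated ends, inside the gene, the step was -2.62, -1.80 and -2.68 in naive and -1.68, -2.10 and -2.07 in EpiLC tracks. Here it hardly moved when T minus A was taken off, with values of -2.64, -1.68 and -2.62 in naive and -1.69, -2.04 and -2.07 in EpiLC tracks. In the 363 genes of 30 to under 50 kb, the farther window of these points reached upstream of the 5′ end.

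At points 25 kb past the ends the sign was the opposite. The step there was 1.47, 1.61 and 1.49 in naive and 1.48, 1.90 and 1.82 in EpiLC tracks as counted, and 1.52, 1.52, 1.40, 1.45, 1.79 and 1.79 in the same order with T minus A taken off. All 12 of these values had intervals above 0.

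Isolated ends were compared with the 3976 measured ends of genes of the same length that had another protein-coding gene within 50 kb. The step as counted was lower at the isolated ends in all 6 tracks, by -0.76 (-1.50 to -0.03) in naive control and -0.9997 percentage points (-1.46 to -0.54) in EpiLC control cells. With T minus A taken off the step at the other ends was above 0, at 1.17 in naive control and 1.12 in EpiLC control cells, and the isolated ends stayed lower, by -0.67 (-1.42 to 0.085) and -0.97 (-1.43 to -0.50). The dip with T minus A taken off was -3.38 in naive control and -2.41 in EpiLC control cells at the ends that were not isolated, and the difference from the isolated ends, 0.30 (-0.40 to 0.998) and 0.0085 (-0.42 to 0.44), had an interval that included 0 in each of the 6 tracks. As counted, the dip was shallower at the isolated ends by 0.72 (0.040 to 1.41), 0.97 (0.24 to 1.69) and 1.02 (0.28 to 1.75) in naive control, dKO and dCD cells, and the interval included 0 in the EpiLC tracks.

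**Figure D4:**
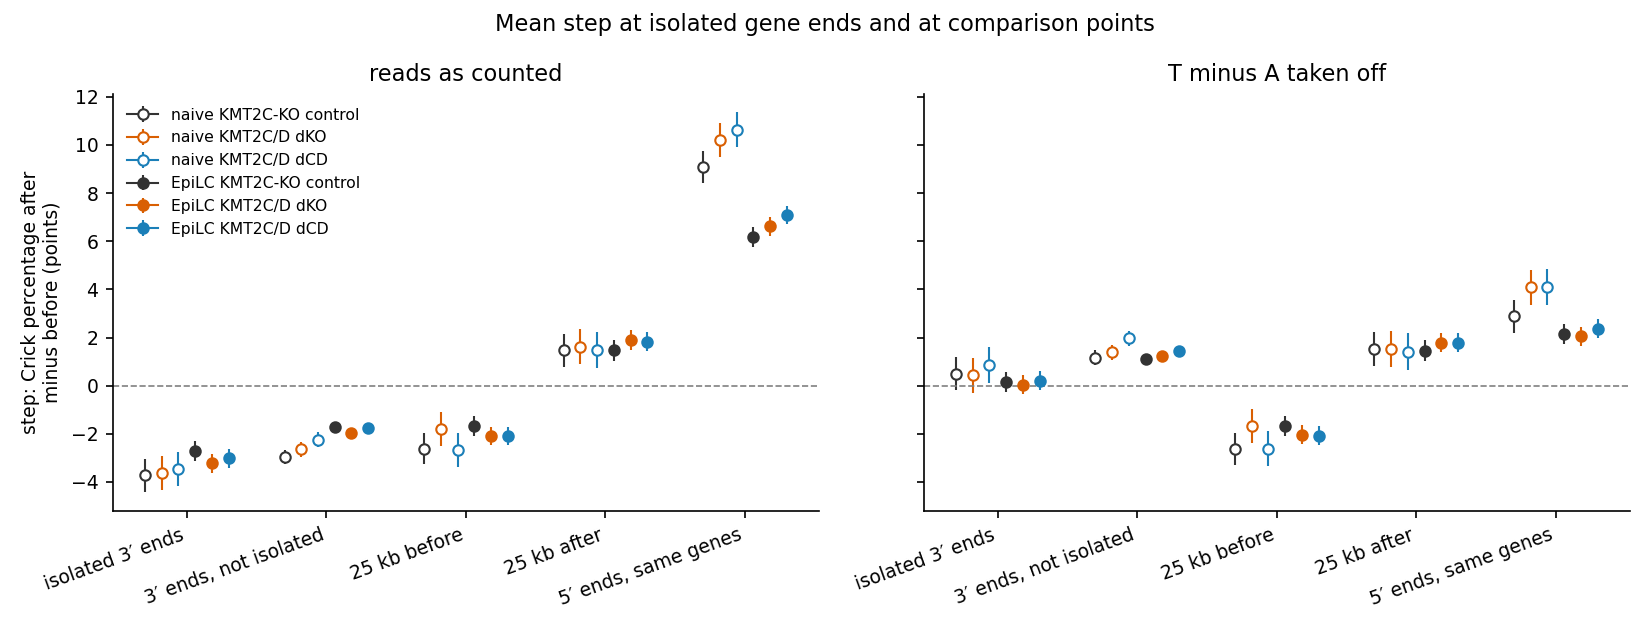
Mean step (Crick percentage past a point minus that before it, 25 kb on each side, in percentage points) at the isolated 3′ ends, at 3′ ends that were not isolated, at points 25 kb before and after the isolated ends and at the 5′ ends of the same genes, as counted (left) and with T minus A taken off (right), with 95% intervals from counting error. Open symbols are naive and filled symbols EpiLC tracks. The isolated ends move from -3.73 to -2.72 up to 0.042 to 0.87, and the points 25 kb before and after keep their values.

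Just inside and just outside the limits of the rule the mean step was below 0 in all 6 tracks. Ends with the nearest other gene at 50 to 60 kb (194 measured) had a step of -5.10 in naive control and -2.88 in EpiLC control cells, and those at 40 to 50 kb (223 measured), outside the rule, had -3.34 and -1.72. Genes of 30 to 35 kb (90 measured) had -5.72 and -4.27 and those of 25 to 30 kb (92 measured) -4.44 and -3.88. Genes of 90 to 100 kb (76 measured) had -4.09 and -2.43 and those of 100 to 110 kb (71 measured) -5.07 and -2.76. Among the mutant tracks the step was -0.60 (-3.12 to 1.92) at 100 to 110 kb in naive dKO cells, the 1 interval of these bands that included 0, and in EpiLC dCD cells it was -3.00 for a nearest gene at 50 to 60 kb and -0.93 (-1.69 to -0.18) at 40 to 50 kb.

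As counted, the step of the mutants differed from that of the control by less than counting error. dKO minus control was 0.09 percentage points (-0.89 to 1.07) in naive cells and -0.52 (-1.09 to 0.06) in EpiLCs, and dCD minus control was 0.27 (-0.72 to 1.25) and -0.31 (-0.88 to 0.26). Divided by the amplitude of the tracks, their spread of Crick percentage given below, dKO minus control was 0.27 and -0.24 and dCD minus control 1.09 and 0.32 in naive cells and EpiLCs, with no interval computed. The autosomes were split, with 8 below and 11 above 0 in naive dKO, 9 and 10 in naive dCD, 11 and 8 in EpiLC dKO and 10 and 9 in EpiLC dCD cells. These comparisons share the control track of their state. The intervals do not show that the mutants were alike, since they reach 1.25 percentage points in naive dCD and -1.09 in EpiLC dKO cells.

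Single ends whose step differed between a mutant and the control beyond counting error were about as frequent as at evenly spaced positions. They were 49 of 889 (5.51%) against 6.31% of positions for naive dKO and 68 (7.65%) against 6.34% for naive dCD cells. In EpiLCs they were 57 (6.41%) against 6.12% for dKO and 69 (7.76%) against 6.35% for dCD cells.

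In naive dCD cells the Crick percentage was higher than in the control by 1.24 percentage points (0.55 to 1.92) before the end and by 1.503 (0.79 to 2.21) past it, on 16 and 17 of 19 autosomes. After adjustment for T minus A these differences were 1.13 (0.43 to 1.84) and 1.501 (0.77 to 2.23). In EpiLC dCD cells the difference before the end was 0.71 (0.32 to 1.11), and 0.21 (-0.19 to 0.61) with T minus A taken off. In dKO cells the difference before the end was 0.58 (-0.10 to 1.26) in the naive state and 0.048 (-0.35 to 0.45) in EpiLCs, and past the end it was 0.67 (-0.03 to 1.38) and -0.47 (-0.88 to -0.053). With T minus A taken off, the dKO percentage on each side was above the control in naive cells and below it in EpiLCs. Those percentages are listed in the last section, without an interval of the dKO difference. The amplitude of each track, its spread of Crick percentage along the autosomes once counting variance was subtracted, also differed, at 12.6, 13.3 and 16.5 percentage points in naive and 9.71, 10.6 and 12.3 in EpiLC control, dKO and dCD tracks, and its part in these differences was not tested.

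As counted, the dip was deeper in the EpiLC mutants than in the EpiLC control, and the size of the difference changed with division by the amplitude and with thinning. dCD minus control was -0.68 percentage points (-1.21 to -0.16) as counted and -0.66 (-1.20 to -0.13) with T minus A taken off, below 0 on 15 of 19 autosomes in both. dKO minus control was -0.54 (-1.07 to -0.0033) as counted, on 15 of 19 autosomes, and -0.40 (-0.94 to 0.14) with T minus A taken off. After division of each track by its amplitude relative to the control of its state the differences were -0.024 for dCD and -0.27 for dKO. In tracks thinned to equal size, by a random draw of reads, they were -1.94 and -0.95 over 871 ends, with no interval computed. In naive cells dCD minus control was -0.17 (-1.09 to 0.75) as counted, 0.66 divided by the amplitude and 0.11 thinned, and dKO minus control was 0.51 (-0.40 to 1.42), 0.65 and 0.83.

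Between states, the step as counted was closer to 0 in EpiLC than in naive control cells. EpiLC minus naive was 1.01 percentage points (0.22 to 1.81) for the step in control cells, above 0 on 14 of 19 autosomes, 0.41 (-0.40 to 1.22) in dKO and 0.44 (-0.38 to 1.26) in dCD cells. The difference between the genotypes in this change was not tested. Adjusted for T minus A, the control value was -0.35 (-1.16 to 0.46), and divided by the amplitude it was 0.21. In these comparisons of states the amplitude was taken relative to that of naive control cells. The slope on T minus A was itself lower in EpiLC tracks (1.15 against 1.69 in the control). For the dip, EpiLC minus naive in the control was 0.85 (0.11 to 1.59) as counted and 0.68 (-0.076 to 1.43) with T minus A taken off, 0.11 divided by the amplitude and 1.45 in thinned tracks. In dKO cells it was -0.20 (-0.95 to 0.56) as counted, -0.37 (-1.14 to 0.40) with T minus A taken off, -0.90 divided by the amplitude and -0.33 thinned. In dCD cells it was 0.34 (-0.42 to 1.10), 0.024 (-0.76 to 0.81), -0.58 and -0.60 in the same order. Its sign was thus not the same in every setting, and the intervals that were computed included 0. Single ends with a different step in the control between states were 55 of 889 (6.19%) against a background of 7.24%. The Crick percentage before the end was lower in EpiLCs in all 3 genotypes, by -1.78 (-2.34 to -1.23), -2.32 (-2.88 to -1.75) and -2.31 (-2.87 to -1.74). Once T minus A was taken off these became -0.0060 (-0.57 to 0.56), -1.20 (-1.78 to -0.63) and -0.93 (-1.51 to -0.34).

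The isolated ends were then grouped by features of the gene. By CpG dinucleotides within 500 bases of the 5′ end, which mark CpG island promoters, the lowest quartile of genes had 1 to 17 CpGs and the highest 80 to 162. The dip with T minus A taken off was -1.44, -2.13, -4.25 and -4.71 from the lowest to the highest quartile in naive control and -0.79, -1.71, -3.44 and -3.61 in EpiLC control cells. The highest quartile was lower than the lowest by -3.27 (-5.12 to -1.42) and -2.83 (-3.96 to -1.69), and the difference had an interval below 0 in all 6 tracks, from -4.40 in EpiLC dKO to -2.83 in EpiLC control cells. The dip at the 3′ end was thus deeper in genes that start in a CpG-rich stretch. By itself the dip does not tell a lower percentage at the end from a higher one in the flanks. The CpG quartiles were not compared within groups of gene length. In the lowest quartile the EpiLC dip was -0.79 (-1.66 to 0.078) in control, -0.18 (-0.98 to 0.63) in dKO and -0.82 (-1.60 to -0.047) in dCD cells.

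By contrast, CpG content ordered the step less. As counted, the step was -4.77 and -3.66 in naive control and -3.81 and -1.88 in EpiLC control cells in the lowest and highest quartile. Adjusted for T minus A it was -0.83 and 1.34 in naive control and -0.87 and 1.503 in EpiLC control cells, and the interval of the difference included 0 in 3 of the 6 tracks.

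Longer genes had the deeper dip. With T minus A taken off it was -3.77 in naive control and -3.09 in EpiLC control cells for 548 genes of 50 to 100 kb, and -1.95 and -1.27 for 335 genes of 30 to under 50 kb. The difference was -1.82 (-3.15 to -0.49) and -1.83 (-2.65 to -1.01) in these tracks and had an interval below 0 in 5 of 6, the exception being EpiLC dKO at -0.56 (-1.32 to 0.20). In the shorter genes the window 25 to 50 kb before the end holds the promoter and sequence upstream of it. At 45 to 50 kb before the end the Crick percentage was 51.8% for shorter and 61.7% for longer genes in naive control cells. The step as counted was -5.11 in shorter and -2.88 in longer genes in naive control and -3.27 and -2.38 in EpiLC control cells, but -3.42 and -3.50 in naive dCD cells. The interval of this difference included 0 in 3 of 6 tracks as counted and in 5 of 6 with T minus A taken off.

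The ends were also grouped by the next gene downstream. Where the next protein-coding gene downstream lay within 200 kb on the same strand (391 measured ends), the Crick percentage past the end was 49.6% in naive control and 49.1% in EpiLC control cells, and where it lay on the opposite strand (214 measured ends) it was 51.6% and 50.5%. The step as counted was -4.30 and -3.27 in naive control and -2.65 and -3.73 in EpiLC control cells, and with T minus A taken off the interval of the difference between both kinds of end included 0 in all 6 tracks. As counted it left out 0 in EpiLC dCD cells alone, at 1.08 (0.0995 to 2.06). The dip with T minus A taken off was -3.73 with the next gene on the same strand and -0.81 with it on the opposite strand in naive control cells, a difference of -2.92 (-4.55 to -1.29). The same difference was -0.32 (-2.04 to 1.41) in naive dKO and -1.71 (-3.47 to 0.058) in naive dCD cells and lay between -0.68 and -0.40 in EpiLC tracks, each with an interval that included 0. As counted it left out 0 in naive control and naive dCD cells, at -3.09 (-4.69 to -1.50) and -1.79 (-3.51 to -0.079). Where the next gene lay over 200 kb away (282 measured ends) the percentage past the end was 57.4% in naive control and 56.5% in EpiLC control cells. Ends on the plus and minus strand both had a step below 0 in every track as counted, from -4.72 to -2.47.

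Ordering the ends by the change of T minus A content ordered the step as counted. From the quartile with the smallest to that with the largest fall in T minus A, the step was 3.05, -1.54, -5.14 and -11.3 in naive control and 1.38, -0.45, -3.10 and -8.73 in EpiLC control cells. In the first quartile T minus A rose or fell by at most 0.21% of bases, and in the last it fell by 4.71% or more. With T minus A taken off the 4 values were 0.42, 0.47, 0.84 and 0.26 in naive control and -0.055, 1.08, 0.61 and -1.02 in EpiLC control cells, without an order.

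The order of single ends was shared between the states. Ends were put into quartiles by the step with T minus A taken off in the summed EpiLC reads and then measured in the naive tracks, which are separate reads. From the lowest to the highest quartile the naive control step with T minus A taken off was -3.56, 0.50, 1.46 and 3.61. In naive dKO cells it was -2.04, -1.20, 1.04 and 3.98, and in naive dCD cells -1.95, -0.62, 0.25 and 5.81. The difference of the outer quartiles was 7.17 (5.20 to 9.14) in the control, 6.02 (3.95 to 8.10) in dKO and 7.75 (5.62 to 9.88) in dCD cells. Across the 889 ends the Pearson correlation of the summed naive and the summed EpiLC step was 0.667 as counted and 0.362 with T minus A taken off, as a description over ends that share the reference sequence.

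**Figure D5:**
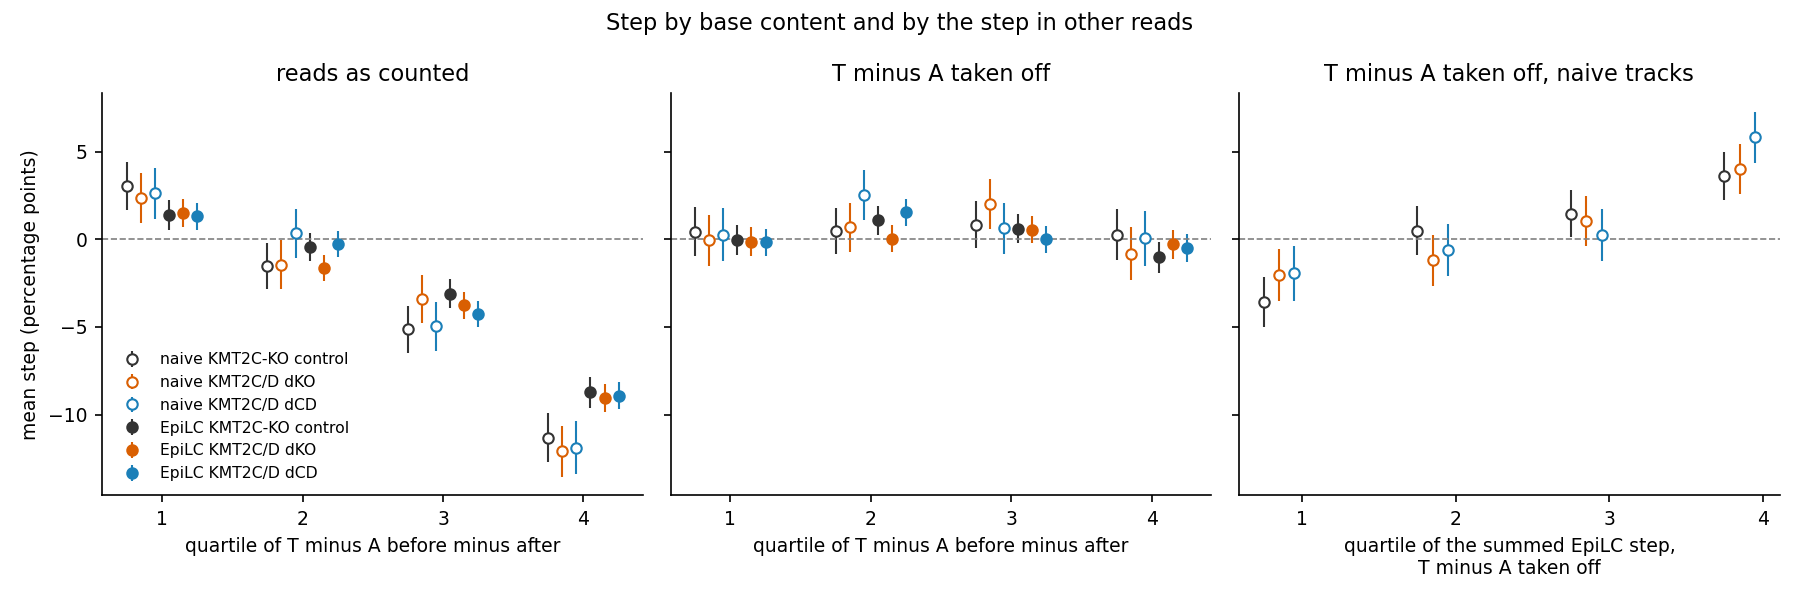
Mean step in percentage points by quartile of the isolated ends, with 95% intervals from counting error. Left and middle, quartiles of T minus A content before minus after the end, as counted and with T minus A taken off, in all 6 tracks. Right, quartiles of the summed EpiLC step measured in the naive tracks, both with T minus A taken off. The step as counted runs from 3.05 to -11.3 in naive control cells, flattens once T minus A is taken off, and still rises from -3.56 to 3.61 across quartiles chosen in EpiLC reads.

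The ends with the lowest step in the summed EpiLC reads were those of Ythdc2, Slc22a28, Cyp2c38, Vmn2r118, Mug2 and Vmn2r26. They were chosen by these values, so the EpiLC values are a description, and the naive tracks are separate reads. Slc22a28 (ENSMUSG00000063590.3), of the organic anion transporter family, had a Crick percentage of 62.5%, 64.5% and 71.8% before and 39.3%, 29.5% and 31.4% past the end in EpiLC control, dKO and dCD cells. In the naive tracks it was 80.8%, 81.2% and 76.2% before and 25%, 20% and 21.1% past the end, from 19 to 32 reads per side. All 6 tracks were lower past this end, with a summed step of -33.4 (-41.5 to -24.4) in EpiLC and -57.5 (-68.8 to -42.0) in naive reads.

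Ythdc2, an RNA helicase that binds methylated RNA and is needed in meiosis, had a summed step of -34.4 (-40.8 to -27.6) in EpiLC and -36.9 (-47.6 to -24.6) in naive reads. Its 6 steps were -37.7, -42.2 and -29.2 in naive and -29.98, -41.2 and -30.9 in EpiLC control, dKO and dCD cells. The cytochrome P450 gene Cyp2c38 had a summed step of -29.9 in EpiLC and -35.8 in naive reads, and Mug2, which encodes a murinoglobulin protease inhibitor of blood plasma, had -26.1 and -34.8. For the vomeronasal receptor genes the values were -28.2 and -49.5 at Vmn2r118 and -25.8 and -41.0 at Vmn2r26. In the naive reads, which the choice did not use, the intervals of the 6 summed steps lay below 0.

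T minus A content was lower past each of these 6 ends, going from 11.8% to -6.0% of bases at Slc22a28, from 8.8% to -7.3% at Ythdc2 and from 13.3% to -4.7% at Vmn2r118. With T minus A taken off the summed EpiLC step was -7.0 at Slc22a28, -10.6 at Ythdc2, -6.9 at Cyp2c38, -5.5 at Mug2, -7.4 at Vmn2r26 and 0.54 at Vmn2r118. In the separate naive reads it was -9.72 at Slc22a28, -6.80 at Ythdc2, 2.25 at Cyp2c38, -3.75 at Mug2, -16.0 at Vmn2r26 and -13.2 at Vmn2r118, so that the sign differed between the states at Cyp2c38 and Vmn2r118. Apart from Ythdc2, these genes belong to multigene families in tandem clusters with similar copies, where the alignment of short reads can be uncertain, and read numbers there were low.

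The ends with the highest summed EpiLC step were those of Vmn2r80, Meox2, Sult2a5, Moxd1, Gm5155 and Vmn2r71. At Meox2, a homeobox gene of mesoderm and limb muscle, the Crick percentage went from 43.8%, 54.2% and 59.0% before to 60%, 71.0% and 76.9% past the end in EpiLC control, dKO and dCD cells. In the naive tracks it went from 60.6%, 53.6% and 42.9% to 79.2%, 80% and 62.5%. All 6 tracks were higher past this end, with a summed step of 16.2 in EpiLC and 19.9 (4.35 to 33.9) in naive reads. With T minus A taken off, in which each bin counts by its reads, the step was 4.93 and 4.42. T minus A content at Meox2 went from 5.19% to 1.79% per base and from 0.31% to 9.20% by EpiLC reads, and 4 bins before and 6 bins past the end held none.

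At Sult2a5, a sulfotransferase gene, the summed step was 16.04 in EpiLC and 23.8 (8.61 to 37.1) in naive reads, and at the vomeronasal receptor genes Vmn2r80 and Vmn2r71 it was 18.9 and 14.7 in EpiLC and 29.7 and 21.0 in naive reads. Adjusted for T minus A these became 8.91 and 15.3 at Sult2a5, 4.96 and 9.60 at Vmn2r80 and 0.30 and 0.22 at Vmn2r71 in EpiLC and naive reads. Moxd1, which encodes a monooxygenase related to dopamine beta-hydroxylase, had 15.9 and 13.2, and it kept 14.6 and 10.8 with T minus A taken off, where T minus A content was 2.3% on both sides. Its steps as counted in control, dKO and dCD cells were 17.4, 22.3 and 7.0 in EpiLC and 7.5, 1.3 and 32.7 in naive tracks. Gm5155, a predicted gene, had 15.6 in EpiLC and 9.41 (-4.10 to 22.5) in naive reads, the 1 naive interval of these 6 ends that included 0, and 7.74 and -0.78 with T minus A taken off. The vomeronasal receptor and sulfotransferase genes here also have similar copies, which short reads may not tell apart.

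Of the gene lists for pluripotency, replication, development and growth control, 16 members had an isolated end, all with enough reads. Among the pluripotency factors, Tfcp2l1, a transcription factor of the naive network, had steps of -8.4, 10.2 and -12.5 in naive and -7.9, -11.9 and 2.5 in EpiLC control, dKO and dCD cells. Etv5, an ETS factor active as cells leave the naive state, had 12.3, -30.3 and -2.5 in naive and -2.1, -12.7 and -0.3 in EpiLC tracks. Neither gene had the same sign in all 6 tracks, and the summed steps, -5.77 (-12.1 to 0.67) and -4.25 (-10.3 to 1.83) in EpiLC reads, had intervals that included 0. The EpiLC values with T minus A taken off were -1.65 at Tfcp2l1 and -0.12 at Etv5.

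Orc5, the 1 isolated end among 61 replication genes and itself a subunit of the origin recognition complex, was lower past its end in EpiLCs, with steps of -16.8, -6.9 and -8.8 and had -0.6, -4.5 and 3.3 in naive tracks. The summed EpiLC step was -10.4 (-17.9 to -2.63) and the naive one -0.84 (-13.0 to 11.2). Adjusted for T minus A they were -2.89 and 8.56. T minus A content here went from -0.99% to 0.22% per base but from 3.87% to -2.04% when each 1 kb bin was weighted by its EpiLC reads, as the adjustment does, and 3 bins before and 2 bins past the end held no EpiLC reads.

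Among growth regulators, Socs2, a feedback inhibitor of cytokine signalling, had a summed step of -7.92 (-14.1 to -1.66) in EpiLC and 3.68 (-6.90 to 13.9) in naive reads, and Smad2, a signal transducer of TGF-beta and Nodal, had -5.63 (-12.1 to 0.87) and -8.29 (-19.3 to 2.99). Adjusted for T minus A they were -4.26 and 8.70 at Socs2 and -1.20 and -0.77 at Smad2. The EpiLC steps of Socs2 as counted were -2.30 in control, 0.42 in dKO and -20.6 in dCD cells, so that its summed fall came mostly from the dCD track.

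Of the 10 developmental genes, Pax7, a paired-box factor of muscle and neural crest, was lower past its end in all 6 tracks, with steps of -6.3, -26.5 and -31.4 in naive and -6.9, -11.7 and -10.05 in EpiLC cells, and summed steps of -9.999 (-16.1 to -3.79) in EpiLC and -19.8 (-30.7 to -8.14) in naive reads, or -5.23 and -14.6 with T minus A taken off. Tbx5, a T-box factor of heart and forelimb, had a summed EpiLC step of -10.8 (-17.6 to -3.97), with 4.65 (-7.53 to 16.04) in naive reads, or -8.08 and 8.14 with T minus A taken off. Pdgfra, a growth factor receptor of mesoderm and primitive endoderm, had a summed naive step of 11.6 (1.84 to 21.3), with 2.78 (-2.52 to 8.08) in EpiLC reads, or 8.92 and 3.24 with T minus A taken off. The receptor Kit and its ligand Kitl had summed EpiLC steps of -2.74 (-9.86 to 4.44) and 4.56 (-2.41 to 11.5). The other 5, Pax3, Gata6, Bcl11a, Bcl11b and Satb1, had summed steps between -5.17 and 3.903 in EpiLC and between -11.3 and -0.42 in naive reads, each with an interval that included 0.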

How the data were processed

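OK-seq reads of 12 samples were processed by the authors, whose methods state alignment to mm10 with Bowtie2 and strand assignment in 1 kb bins. The submitters' processing notes also name FastQC, Trim Galore and Picard and, beside mm10, the build hg19. The deposited signal was read density per base on the Watson and Crick strands, with the 2 replicates of each condition summed into 6 tracks. Every value times 1000 was a whole number within 1e-06, and these products were taken as reads. Library sizes were not equalised.

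The members, gene lists and measures were chosen with earlier results of these data known. Bins with over 10 times the median coverage were left out (122 bins), and an end needed 10 reads per side in all 6 tracks. Means weighted ends equally. The 95% intervals are normal intervals from binomial variance for means, Wilson intervals for summed profiles and Newcombe intervals for single ends, and they cover counting error only. Reads copied by PCR are not independent molecules, and where such copies remain the intervals are too narrow even for counting error.

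The T minus A slope was fitted on each 1 kb bin against the 10 neighbours on either side without the nearest 2, and its error is not in the intervals. Named genes were the 6 lowest and 6 highest summed EpiLC steps and all list members, 1 of which is not reported here. List genes were compared by counts and values alone. The list of H3K4 methylation and enhancer chromatin genes had 0 members among 24 genes. Code was tested on simulated data. Python 3.11.15, numpy 2.4.6, pandas 2.3.3 and matplotlib 3.10.9 were used.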

Additional observations from a re-analysis of the deposited data

How the results depend on the processing

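No paired analysis was possible because the deposited tracks sum the replicates, and no replicate could be left out. The dip, its alternatives, the joint T minus A and G minus C adjustment and the quartiles of T minus A change were chosen after seeing the data. The step per track was below 0 in 85 of 96 alternative values and the dip in 54 of 54. The 11 step values above 0 were all from the settings with T minus A, or T minus A and G minus C, taken off. The cause of the changes listed here was not tested. Values are percentage points, in the order naive control, dKO, dCD, EpiLC control, dKO, dCD unless named.

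The step with T minus A taken off was 0.50, 0.44, 0.87, 0.15, 0.042 and 0.21, and with G minus C also taken off 0.27, 0.19, 0.45, 0.115, 0.0081 and -0.071. EpiLC minus naive was then -0.35 in control and -0.66 in dCD, and -0.15 and -0.52 with both taken off. The percentage before the end became 51.2, 52.01, 52.3, 51.2, 50.8 and 51.4, the percentage after it 51.7, 52.5, 53.2, 51.4, 50.9 and 51.6, and the lowest 5 kb bin 50.1, 50.6, 51.1, 49.7, 49.2 and 49.4. In 10 kb windows the step was -2.35 in naive control, -1.81 in naive dKO, -1.58 in EpiLC control, -2.76 in EpiLC dKO and -2.02 in EpiLC dCD, with differences from the control of -0.99 in naive dCD and -1.18 in EpiLC dKO, and EpiLC minus naive of -0.94 in dKO and 1.33 in dCD. Divided by the amplitude, the step was -2.65 in naive dCD and -2.40 in EpiLC dCD, dCD minus control was 1.09 in naive cells and 0.32 in EpiLCs, EpiLC minus naive was 0.21 in control and -0.46 in dCD, and the dip was -2.69 and -2.52 in naive and EpiLC dCD.

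With no protein-coding gene within 100 kb the step was -3.00 and -2.93 in naive control and dKO and the dip -2.93 and -3.77 in EpiLC control and dCD. With no gene of any type within 50 kb the step was -2.63 in naive dCD, EpiLC minus naive was -0.51 in dCD, and the dip was -2.15 in naive dKO and -1.75, -2.60 and -2.67 in EpiLCs. Genes of 50 to 100 kb had a step of -2.88 in naive control and dips of -4.64, -4.15, -5.05, -3.64, -3.83 and -4.03. The step was -2.62 on the plus and -4.72 on the minus strand in naive dKO, and -2.52 and -3.56 in EpiLC dCD. A 5 kb inner window gave dips of -3.50 and -4.30 in naive dKO and dCD and -3.04, -3.55 and -3.83 in EpiLCs. Thinned to equal size, the EpiLC dKO step was -2.75 and the EpiLC dCD dip -4.15. Summed reads gave 58.3% before and 54.8% after in naive dCD and 55.5% and 52.5% in EpiLC dCD.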
